A study of Mus musculus with 14 samples.

Results

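Complement is a set of plasma and tissue proteins that tag surfaces and immune complexes. In the classical pathway C1q, a complex built from the chains of C1qa, C1qb and C1qc, binds antibody or cell debris and its associated proteases cut C4 and then C3. The fragments are read by receptors on phagocytes, and inhibitors limit the cascade. In the brain C1q comes mainly from microglia, and it is known for tagging synapses and for autoantibodies against it in lupus. The 9 genes described here are C1qa, C1qb, C1qc, C3, C4b, Serping1, C3ar1, C5ar1 and Cd59a. They were taken by symbol from the GENCODE M21 annotation, out of 55536 Ensembl genes in the deposited count table, and all 9 were among the 38070 genes tested.

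The hippocampus of 14 mice, all aged 10 months, had been sequenced as bulk poly(A) RNA, a library for each mouse. MRL mice (n = 4) were B6.MRL-Faslpr/J, in which a mutation of the death receptor gene Fas leads to lupus-like disease. MRL-IRAK4-KD mice (n = 4) carried the same Fas mutation together with kinase-dead IRAK4, the kinase that relays signals of toll-like receptors and the IL-1 receptor. C57BL/6 mice (n = 3) carried neither mutation, and IRAK4-KD mice (n = 3) were labelled as carrying the kinase-dead form alone. All strains were on the C57BL/6 background, the mutation was present in every cell, and brains had been perfused with cold PBS before dissection. Total counts ranged from 279941472 to 572398312 per library. Levels are given as CPM, counts per 1000000 counts of a library whose size was scaled by TMM. Tests are edgeR's quasi-likelihood test in a single fit of the 4 groups, with p adjusted by the Benjamini-Hochberg method over the 38070 genes. Positive log2 fold changes mean higher in the group named first.

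Some libraries stood apart from their groups, and they bear on what follows. The ratio of MRL-IRAK4-KD replicate 4 to the mean of replicates 1 to 3 of its group depended on exon length, from a median log2 ratio of 0.71 over 920 genes of at most 1000 bases to -0.49 over 2692 genes above 8000 bases. Its choroid plexus markers summed to 7914 CPM, against 75.9 to 1924 in the remaining libraries, and its library concentration by qPCR was 13.48 nM against 23.49 to 27.55. MRL replicate 3 held the pituitary transcript Prl at 69.6 CPM, against at most 3.30 in every other library. The library labelled IRAK4-KD replicate 3 had 0 counts of the full-length transcript Fas-201, like all 8 MRL and MRL-IRAK4-KD libraries, against 345 to 584 in C57BL/6 mice. It had 514 counts of Fas-204, against 268 to 964 in those 8 and at most 7 in the other libraries, which goes against its label. Its striatal and thalamic markers summed to 455 CPM against 158 to 247 elsewhere. Hippocampal markers were present in every library, with all 10 detected in each group.

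The initiating chains of C1q were the most abundant members. Per length, and averaged over the 14 libraries, C1qa was at 45.0 ± 14.5 CPM per kb (SD, n = 14), C1qb at 42.6 ± 20.5 and C1qc at 31.6 ± 8.84. C4b followed at 12.6 ± 2.79 CPM per kb, then Cd59a at 5.21 ± 3.95 and Serping1 at 4.36 ± 1.07. C3ar1 at 0.648 ± 0.115, C3 at 0.481 ± 0.144 and C5ar1 at 0.355 ± 0.109 CPM per kb were the lowest. Of the neighbours in this order, C1qa and C1qb, C1qb and C1qc, Cd59a and Serping1, C3ar1 and C3, and C3 and C5ar1 lay within their spread over the libraries. Compared within each library, C1qb was at 0.833 to 1.25 of C1qa and C1qc at 0.614 to 0.777 of C1qa. C1qc was thus below C1qb in every library, and C1qb below C1qa in all but MRL-IRAK4-KD replicate 4. The central component C3 was thus at a small fraction of the level of the C1q chains, while C4b, the substrate of the C1 proteases, lay between them.

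The C1q genes lie side by side on chromosome 4 of mm10, on the minus strand, with C1qb at 136880129 to 136886187, C1qc at 136889804 to 136893065 and C1qa at 136895917 to 136898803. The promoter of C1qb is shown because the 3 C1q genes had nearly the same profile across the mice. It is the 250 bases before the RefSeq start (GRCm38.p6, chr4:136886201-136886450, minus strand), with the match to the core motif of PU.1, the myeloid transcription factor, in capitals.
C1qb: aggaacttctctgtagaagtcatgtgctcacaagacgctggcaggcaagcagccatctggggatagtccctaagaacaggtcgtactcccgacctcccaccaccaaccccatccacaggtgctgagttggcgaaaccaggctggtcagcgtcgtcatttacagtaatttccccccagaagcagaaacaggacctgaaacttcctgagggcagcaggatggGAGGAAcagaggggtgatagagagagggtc
The motif searched was GAGGAA on both strands, and it occurs in 23.3% of 32851 RefSeq promoter windows of this length. Of the 6 members with such a window (C1qb, C1qc, C3, C3ar1, C5ar1 and Cd59a), 3 held it, namely C1qb, C1qc and Cd59a. The interferon-stimulated response element, searched by its core letters, was present in the Cd59a window only, against 2.98% of all windows, and the interferon-gamma activated site, searched as TTCNNNGAA, was in none of the 6 against 7.02% of all. These are matches of letters and do not show binding.

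C1qb stood at 53.3, 48.2, 45.0 and 57.7 CPM in MRL replicates 1 to 4, and at 44.3, 36.3, 38.9 and 118.5 CPM in MRL-IRAK4-KD replicates 1 to 4. C57BL/6 mice had 37.2, 34.1 and 36.8 CPM, and IRAK4-KD mice 32.5, 37.6 and 27.8 CPM. All 4 MRL mice thus lay above every C57BL/6 and IRAK4-KD mouse and above MRL-IRAK4-KD replicates 1 to 3, while MRL-IRAK4-KD replicate 4 had the highest value of the 14.

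C1qa followed the same order, at 58.7, 51.3, 45.4 and 60.2 CPM in MRL, 45.9, 41.7, 41.5 and 90.5 in MRL-IRAK4-KD, 39.8, 35.5 and 37.8 in C57BL/6 and 37.2, 38.3 and 31.4 in IRAK4-KD mice. C1qc had 47.0, 45.1, 39.6 and 50.7 CPM in MRL, 38.2, 33.6, 33.5 and 64.2 in MRL-IRAK4-KD, 32.3, 30.2 and 33.9 in C57BL/6 and 29.8, 30.0 and 23.8 in IRAK4-KD mice. The lowest C1qa and C1qc values of MRL mice exceeded the highest of C57BL/6 and of IRAK4-KD mice. MRL-IRAK4-KD replicates 1 to 3 lay between the MRL and the C57BL/6 mice for all 3 chains, except that replicate 1 exceeded MRL replicate 3 in C1qa and that the lowest MRL-IRAK4-KD values of C1qb and C1qc lay within the C57BL/6 range.

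**Figure D1:**
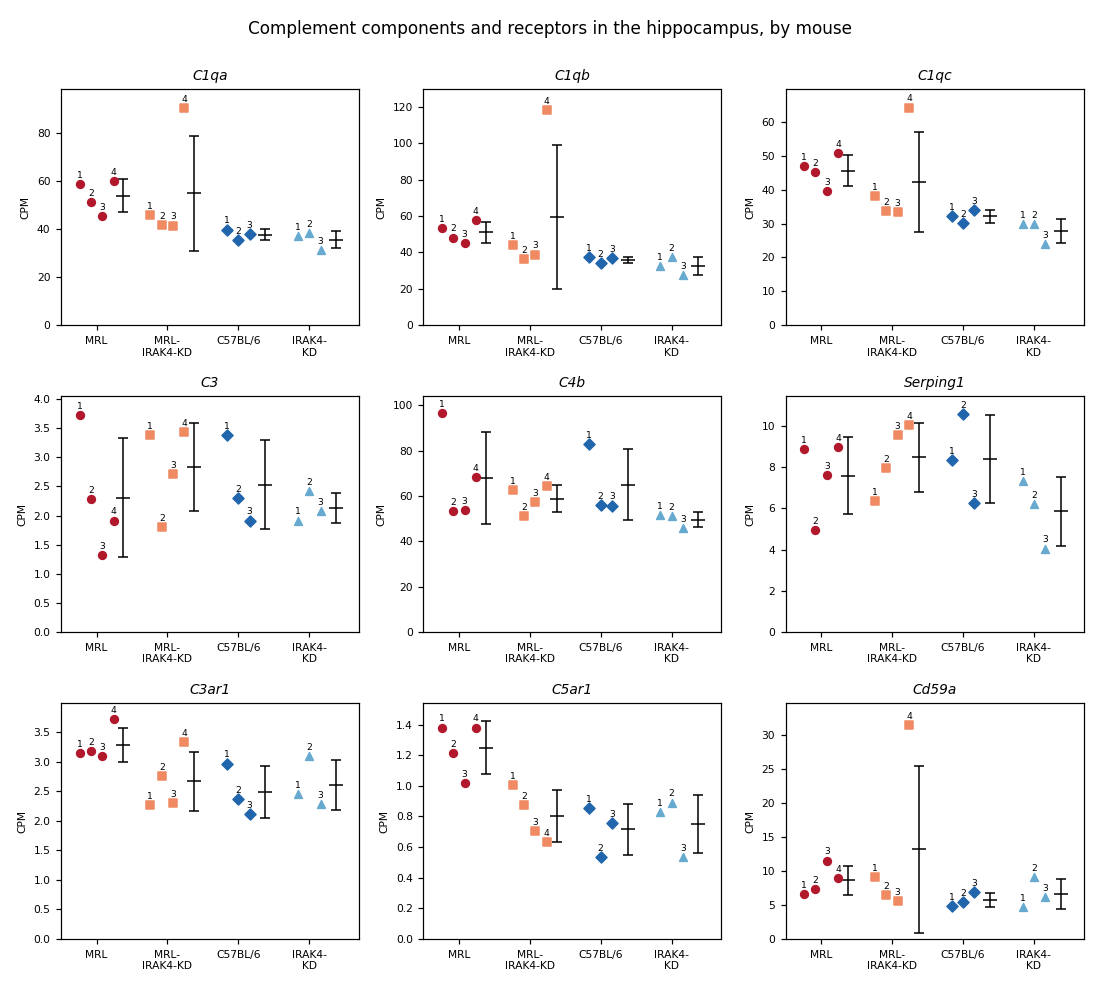
CPM of the 9 complement genes by mouse; numbers beside points are replicate numbers, and bars are the mean ± SD of each group (n = 4, 4, 3 and 3). For C5ar1 every MRL mouse lies above every other mouse, and for C1qa, C1qb, C1qc and Cd59a the highest point is MRL-IRAK4-KD replicate 4.

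Against C57BL/6 mice, the question is what the lupus-prone background does without the kinase mutation. C1qa was higher in MRL mice by 0.52 ± 0.23 on the log2 scale (SE; edgeR adjusted p = 0.899), C1qc by 0.51 ± 0.20 (adjusted p = 0.882) and C1qb by 0.50 ± 0.33 (adjusted p = 0.951), which are folds of 1.43, 1.42 and 1.42. C1qa, C1qc and the receptors C5ar1 and C3ar1 were at an unadjusted p below 0.05. This made 4 of 9 members, where 5.55% of all genes tested were, and every MRL mouse exceeded every C57BL/6 mouse for 5 of the 9 (C1qa, C1qb, C1qc, C3ar1 and C5ar1), where 4.47% of all genes did. The median log2 fold change was 0.50 over the 9 members and -0.005 over all genes tested. No member passed the adjusted threshold, as did 0% of all genes, and DESeq2 and limma-voom also called 0 members, with 4 and 6 at an unadjusted p. The SE of C1qa was 0.23 with MRL-IRAK4-KD replicate 4 in the common fit and 0.10 without it. Without it the adjusted p was 0.0802 for C1qa, 0.109 for C1qb and 0.0802 for C1qc, with 6 members at an unadjusted p, and without MRL replicate 3, MRL-IRAK4-KD replicate 4 and IRAK4-KD replicate 3 together it was 0.0475 for both C1qa (0.60) and C1qc (0.57), the only members called under any alternative run. The share of all genes at an unadjusted p is given only for edgeR with all mice.

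Between MRL and MRL-IRAK4-KD mice, the comparison that asks what the kinase mutation does in lupus-prone mice, the C1q result turned on a single library. With all mice the differences were -0.03 ± 0.21 for C1qa (adjusted p = 0.979), -0.22 ± 0.30 for C1qb (adjusted p = 0.782) and 0.11 ± 0.18 for C1qc (adjusted p = 0.835). Without MRL-IRAK4-KD replicate 4 they were 0.33 ± 0.10 for C1qa (adjusted p = 0.340), 0.36 ± 0.11 for C1qb (adjusted p = 0.340) and 0.38 ± 0.10 for C1qc (adjusted p = 0.254). In all, 1 of 9 members (C5ar1) was at an unadjusted p below 0.05 with all mice, against 11.4% of all genes. Without that library 5 were, but the share of all genes in that fit is not given, so the rise cannot be read as particular to these members. No member was called at an adjusted p, against 0.0972% of all genes, and neither DESeq2 nor limma-voom called any, with 1 and 7 at an unadjusted p. Every MRL mouse exceeded every MRL-IRAK4-KD mouse for 1 of 9 members against 3.13% of all genes, and exceeded replicates 1 to 3 for 4 of 9 (C1qb, C1qc, C3ar1 and C5ar1) against 4.41%.

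**Figure D2:**
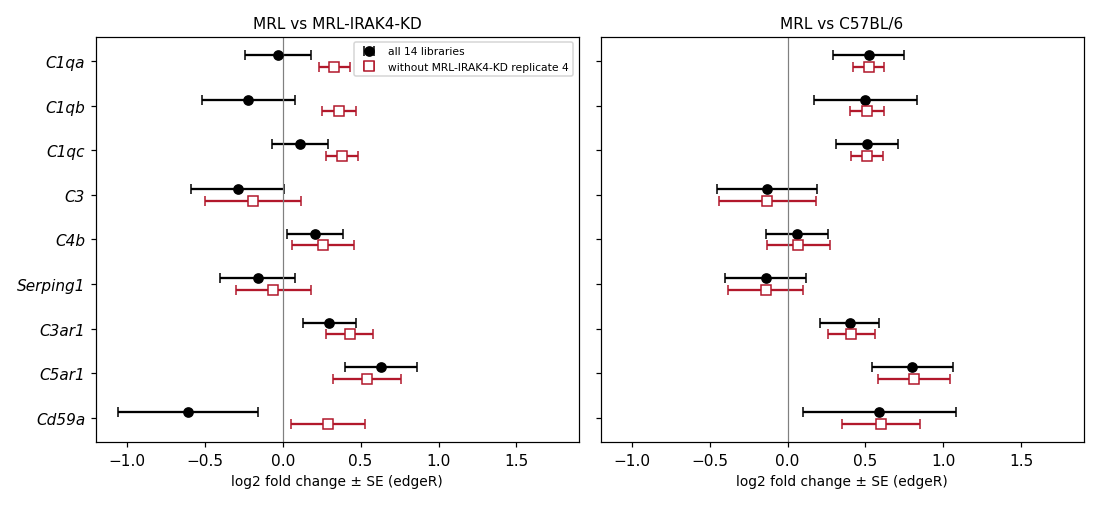
Log2 fold change ± SE (edgeR) of the 9 members between MRL and MRL-IRAK4-KD mice and between MRL and C57BL/6 mice, with all 14 libraries (black) and without MRL-IRAK4-KD replicate 4 (red, open). C1qa goes from -0.03 to 0.33, C1qb from -0.22 to 0.36 and Cd59a from -0.61 to 0.29 in the left panel, while the right panel keeps its values and narrows its errors.

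The kinase mutation on the non-lupus background moved no member past a threshold. Between IRAK4-KD and C57BL/6 mice 0 of 9 members were at an unadjusted p below 0.05 (3.80% of all genes) and 0 at an adjusted p (0.147% of all genes) by edgeR, and DESeq2 had 0 and limma-voom 1 at an unadjusted p. The C1q chains differed there by -0.08 ± 0.25 for C1qa, -0.14 ± 0.35 for C1qb and -0.21 ± 0.21 for C1qc. Between MRL-IRAK4-KD and IRAK4-KD mice, which share the kinase mutation and differ in the lupus background, 3 of 9 were at an unadjusted p (8.63% of all genes) and 0 at an adjusted p (0.0735% of all genes), with 4 by DESeq2 and 2 by limma-voom at an unadjusted p. The 3 were C1qa at 0.62 ± 0.23 (adjusted p = 0.553), C1qb at 0.87 ± 0.33 (adjusted p = 0.553) and C1qc at 0.61 ± 0.20 (adjusted p = 0.550). They were at 0.27 ± 0.10, 0.29 ± 0.11 and 0.34 ± 0.10 without MRL-IRAK4-KD replicate 4, and every MRL-IRAK4-KD mouse exceeded every IRAK4-KD mouse for C1qa and C1qc, 2 of 9 members against 4.31% of all genes. Without IRAK4-KD replicate 3, whose Fas transcripts go against its label, the values were 0.54, 0.76 and 0.51, with 1 of 9 members at an unadjusted p, and against C57BL/6 mice IRAK4-KD was then at -0.04 for C1qb and -0.11 for C1qc. The interaction, which asks whether the mutation acts differently on the lupus background, had 0 of 9 members at an unadjusted p (4.17% of all genes) and 0 at an adjusted p (0.00263%). DESeq2 had 1 and limma-voom 4 at an unadjusted p there.

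Summed microglial markers, like the C1q genes, were higher in MRL mice than in C57BL/6 and IRAK4-KD mice. The 16 markers on the list, among them Tmem119, P2ry12 and Cx3cr1, summed to 471 to 606 CPM in MRL, 449 to 482 in MRL-IRAK4-KD, 409 to 433 in C57BL/6 and 392 to 434 in IRAK4-KD mice, with none at 0. Between MRL and C57BL/6 mice all 16 had a positive log2 fold change, with a median of 0.28. An unadjusted p below 0.05 was reached by 4 (5.55% of all genes) and an adjusted one by 0 (0% of all genes). Single markers did not all follow C1q by mouse. P2ry12 was at 32.6 to 45.0 CPM in MRL and 32.3 to 38.6 in C57BL/6 mice. In MRL-IRAK4-KD replicate 4 P2ry12 was at 20.8 CPM, its lowest value, while Tmem119 was at 31.8 CPM, its highest. The summed C1q chains came to 0.263 to 0.332 of the microglial sum in MRL mice, 0.240 to 0.266 in C57BL/6, 0.212 to 0.244 in IRAK4-KD and 0.248 to 0.279 in MRL-IRAK4-KD replicates 1 to 3. In MRL-IRAK4-KD replicate 4 the ratio was 0.566, outside the range of all others. The MRL and C57BL/6 ranges of this ratio met at 0.263 to 0.266. In bulk tissue more microglia and more C1q RNA per microglial cell cannot be told apart.

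**Figure D3:**
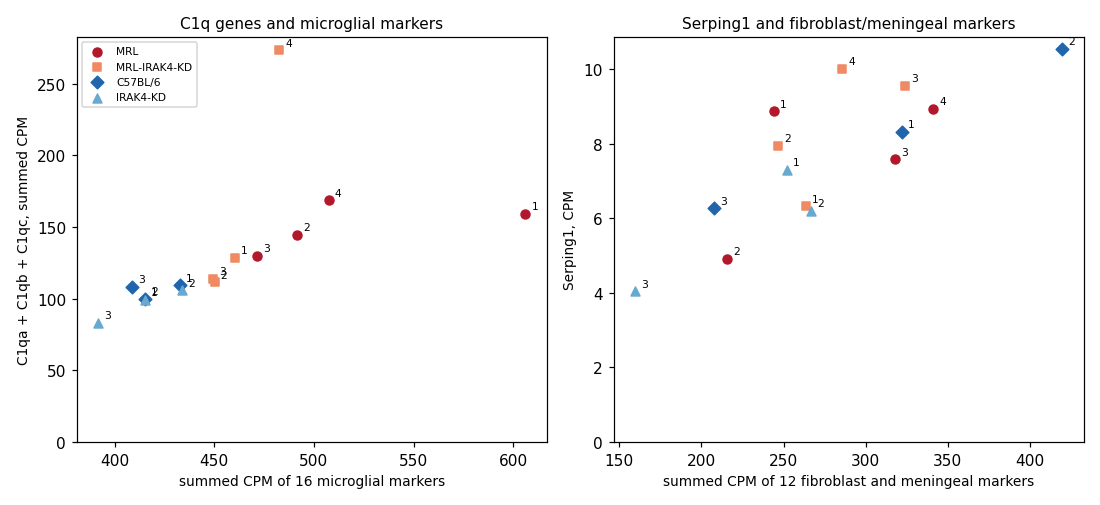
Left, summed CPM of C1qa, C1qb and C1qc against the summed CPM of 16 microglial markers; right, CPM of Serping1 against the summed CPM of 12 fibroblast and meningeal markers; each point is 1 mouse with its replicate number. On the left MRL-IRAK4-KD replicate 4 (273 CPM of C1q) lies above the band of the other 13 libraries, and on the right the lowest and the highest Serping1 values fall at the lowest and the highest marker sums.

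The chains kept a near constant proportion in the 13 libraries other than MRL-IRAK4-KD replicate 4. Per length, C1qb was at 0.833 to 0.946 of C1qa there and C1qc at 0.656 to 0.777. In MRL-IRAK4-KD replicate 4 these ratios were 1.25 and 0.614, so its C1q excess was uneven between the chains. Over all 14 libraries, the genes outside the 9 whose log2 CPM profile was nearest to that of summed C1q were Trem2, Tyrobp and Fcer1g, at root mean square differences of 0.106, 0.127 and 0.129, out of 16096 genes with a mean of at least 1 CPM. Without MRL-IRAK4-KD replicate 4 they were Ly86, Ctss and Tmem119, at 0.0804, 0.0850 and 0.0874. Trem2 and Tyrobp are a microglial receptor and its adaptor and are on the marker list used above, as is Tmem119, and Ctss is a lysosomal protease.

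A minor transcript of C1qc had a wider gap between the groups than the gene total, a difference that was not tested. C1qc-202 is a processed transcript whose second exon (chromosome 4, 136891651 to 136892563) runs into the intron of the coding form. It had 87 to 150 counts in MRL, 26 to 57 in MRL-IRAK4-KD, 12 to 32 in C57BL/6 and 16 to 44 in IRAK4-KD mice, at most 0.619% of the counts of C1qc. In CPM every MRL mouse, from 0.170, exceeded every other mouse. Its log2 fold change was 1.83 ± 0.41 between MRL and C57BL/6 mice (edgeR over 105421 transcripts, adjusted p = 1) and 0.97 ± 0.36 between MRL and MRL-IRAK4-KD mice (adjusted p = 0.616). This fit was added after values had been seen. C1qc-202 was picked because its lowest MRL value exceeded its highest C57BL/6 value, so that separation follows from the choice. The share of all transcripts that separate in this way is not given.

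C5ar1, the receptor of the anaphylatoxin C5a on myeloid cells, was the only member for which every MRL mouse exceeded all 10 mice of the other groups, as 0.728% of all genes did. It lies on chromosome 7 (16246743 to 16259540). MRL mice had 1.38, 1.22, 1.02 and 1.38 CPM, MRL-IRAK4-KD mice 1.01, 0.876, 0.705 and 0.631, C57BL/6 mice 0.855, 0.532 and 0.757 and IRAK4-KD mice 0.828, 0.891 and 0.537. The gap was narrow at its closest point, between 1.02 CPM in MRL replicate 3 and 1.01 in MRL-IRAK4-KD replicate 1. The log2 fold change was 0.63 ± 0.23 against MRL-IRAK4-KD (adjusted p = 0.437) and 0.80 ± 0.26 against C57BL/6 mice (adjusted p = 0.716). MRL-IRAK4-KD replicate 4, at 0.631 CPM, was the lowest of its group. In the transcript-level fit, the only C5ar1 transcript with counts was at 0.58 ± 0.26 against MRL-IRAK4-KD (edgeR unadjusted p = 0.0425, adjusted p = 0.616). Without MRL-IRAK4-KD replicate 4 it was at 0.52 ± 0.24 (edgeR unadjusted p = 0.0556, adjusted p = 0.876). The 2-sided exact permutation test of 4 against 4 MRL and MRL-IRAK4-KD mice gave p = 0.0286, the smallest it can give. Groups of 4 that do not overlap always give this p, so it restates the gap above. Every MRL mouse exceeded every MRL-IRAK4-KD mouse for 3.13% of all genes. The interaction was 0.70 ± 0.36 (adjusted p = 0.914).

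Some lists of markers of other cells were also higher in MRL mice, and others were not. Per 1000 CPM of microglial markers C5ar1 was at 2.16 to 2.72 CPM in MRL, 1.31 to 2.19 in MRL-IRAK4-KD, 1.28 to 1.98 in C57BL/6 and 1.37 to 2.05 in IRAK4-KD mice, so that scaled in this way the MRL range met that of MRL-IRAK4-KD mice. Of 10 blood and neutrophil markers, 7 passed an unadjusted p of 0.05 as higher in MRL than in MRL-IRAK4-KD mice and 9 than in C57BL/6 mice, with 0 at an adjusted p. Their sum was 85.4 to 375 CPM in MRL, 53.7 to 196 in MRL-IRAK4-KD, 44.6 to 94.8 in C57BL/6 and 21.7 to 60.3 in IRAK4-KD mice. In MRL replicates 1 to 4 that sum was 375, 159, 85.4 and 373 CPM, highest in replicates 1 and 4 and lowest in replicate 3, as was C5ar1. In MRL-IRAK4-KD replicates 1 to 4 it was 58.4, 55.2, 53.7 and 196 CPM, highest in replicate 4, where C5ar1 was lowest. The sum of 10 endothelial markers, 273 to 439 CPM in MRL mice, exceeded that of all others, 133 to 226. Against MRL-IRAK4-KD mice, 8 of these 10 were higher at an unadjusted p (11.4% of all genes) and 1 at an adjusted p (0.0972% of all genes). Hippocampal neuron markers were lower there, 6 of 10 at an unadjusted p (11.4% of all genes) and 0 at an adjusted p, with a median of -0.41. Their sums were 857 to 1390 CPM in MRL and 1210 to 2370 in MRL-IRAK4-KD mice. Of 12 lymphocyte and 12 fibroblast and meningeal markers, 0 were higher at an unadjusted p in either comparison. The part of these cells in the C5ar1 difference was not tested.

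C3ar1, the receptor of C3a, had 3.14, 3.18, 3.10 and 3.71 CPM in MRL and 2.27, 2.76, 2.30 and 3.33 in MRL-IRAK4-KD mice. C57BL/6 mice had 2.97, 2.37 and 2.11 CPM and IRAK4-KD mice 2.44, 3.09 and 2.28. MRL mice lay above every C57BL/6 mouse and, by a small margin, above every IRAK4-KD mouse. C3ar1 was at 0.40 ± 0.19 against C57BL/6 mice (adjusted p = 0.899) and at 0.30 ± 0.17 against MRL-IRAK4-KD (adjusted p = 0.466), which was 0.43 ± 0.15 without MRL-IRAK4-KD replicate 4 (adjusted p = 0.449). Relative to 1000 CPM of microglial markers its range was 5.19 to 7.32 in MRL and 5.17 to 6.86 CPM in C57BL/6 mice.

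The substrates C4b and C3 overlapped between most groups. C4b (chromosome 17, 34728380 to 34743882) had 96.5, 53.4, 53.7 and 68.2 CPM in MRL, 62.8, 51.2, 57.5 and 64.3 in MRL-IRAK4-KD, 83.0, 56.2 and 55.8 in C57BL/6 and 51.8, 51.1 and 45.8 in IRAK4-KD mice. Every MRL and every C57BL/6 mouse exceeded every IRAK4-KD mouse, and the other groups overlapped. IRAK4-KD differed from C57BL/6 mice by -0.39 ± 0.21 (adjusted p = 1), which was -0.34 without IRAK4-KD replicate 3. Between MRL and MRL-IRAK4-KD mice it was at 0.21 ± 0.18 (adjusted p = 0.642), which was -0.02 without MRL replicate 1. C4b shares 16.5% of its 100-base windows with its paralog C4a, so that reads could have been divided between them, and C4a was at most 5.71 CPM. C3 (chromosome 17, 57203970 to 57228136) had 3.73, 2.28, 1.32 and 1.91 CPM in MRL and 3.39, 1.81, 2.71 and 3.43 in MRL-IRAK4-KD mice. C57BL/6 mice had 3.38, 2.31 and 1.91 CPM and IRAK4-KD mice 1.91, 2.42 and 2.08. Its differences lay between -0.29 ± 0.30 and 0.41 ± 0.32 over the 4 comparisons, with adjusted p from 0.658 to 1. The highest MRL and the highest C57BL/6 mouse were replicate 1 for both genes. Labels do not say whether mice of the same number share a litter or batch, and this was not tested.

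The genes with the profile nearest to C3 were Gpnmb, Kctd4 and Ccdc180, at root mean square differences of 0.224, 0.262 and 0.265 on the log2 scale, and those nearest to C4b were Map1a, Il21r and C4a, at 0.185, 0.187 and 0.187. These compare with 0.403 for C3 and 0.282 for C4b around their own means, so the likeness was weaker than for C1q, where the spread was 0.411. Without MRL-IRAK4-KD replicate 4 none of these names stayed among the nearest genes. They were then Ccdc121, Hydin and Ccdc162 for C3, at 0.202, 0.222 and 0.230, and mt-Td, Fat1 and Castor1 for C4b, at 0.169, 0.175 and 0.175.

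Serping1 (chromosome 2, 84765387 to 84775444), which encodes the C1 inhibitor, had 8.88, 4.92, 7.59 and 8.94 CPM in MRL and 6.33, 7.95, 9.55 and 10.02 in MRL-IRAK4-KD mice. C57BL/6 mice had 8.33, 10.55 and 6.27 CPM and IRAK4-KD mice 7.30, 6.21 and 4.05, and all groups overlapped. Its log2 fold changes were -0.16 ± 0.24 between MRL and MRL-IRAK4-KD, -0.14 ± 0.26 between MRL and C57BL/6 and -0.52 ± 0.28 between IRAK4-KD and C57BL/6 mice (adjusted p = 1). Markers of fibroblasts and meninges varied too. Their sum was lowest in IRAK4-KD replicate 3, at 160 CPM, where Serping1 was 4.05, and highest in C57BL/6 replicate 2, at 420 CPM, where it was 10.55. The ranges of the sum were 215 to 341 CPM in MRL, 247 to 324 in MRL-IRAK4-KD, 207 to 420 in C57BL/6 and 160 to 267 in IRAK4-KD mice, with 0 of 12 markers at 0, and the part of these cells was not tested.

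Cd59a (chromosome 2, 104095801 to 104115354), the membrane inhibitor of the terminal pore, had 6.63, 7.32, 11.55 and 8.97 CPM in MRL, 9.06, 6.52, 5.61 and 31.5 in MRL-IRAK4-KD, 4.83, 5.45 and 6.88 in C57BL/6 and 4.74, 9.08 and 6.16 in IRAK4-KD mice. MRL-IRAK4-KD replicate 4 was far above every other mouse. With it the log2 fold change of MRL over MRL-IRAK4-KD was -0.61 ± 0.45 (adjusted p = 0.569), and without it 0.29 ± 0.24 (adjusted p = 0.803). Between MRL and C57BL/6 mice it was 0.59 ± 0.49 (adjusted p = 1). Only 0.314% of the 100-base windows of its main transcript occur in another gene, its paralog Cd59b. Choroid plexus markers summed to 7914 CPM in MRL-IRAK4-KD replicate 4 and 1924 in replicate 1. Their sum was 1451 and 1721 CPM in MRL replicates 3 and 4 and 1498 in IRAK4-KD replicate 2. Cd59a was higher in these libraries than in all others, where the sum was 75.9 to 574 CPM. Between MRL and C57BL/6 mice all 12 markers had a positive log2 fold change, with a median of 1.5. The part of these cells was not tested.

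The excess of MRL-IRAK4-KD replicate 4 differed widely among the members. Relative to the mean of replicates 1 to 3, on the log2 scale, Cd59a was at 2.14 (main transcript of 1691 bases), C1qb at 1.57 (1088), C1qa at 1.07 (1040) and C1qc at 0.87 (1203). Serping1 (1768 bases) was at 0.33, C3ar1 (4305) at 0.43, C3 (5136) at 0.37, C4b (5379) at 0.17 and C5ar1 (2540) at -0.40. The median of all genes was 0.47 between 1000 and 2000 bases of exon length, 0.06 up to 4000 and -0.26 up to 8000. Placed by exon length, all members but C5ar1 lay above the median of their class, while by the length of its main transcript Serping1 lay below. Itgam, the receptor chain for cleaved C3, was at -1.34. What this library holds beyond a length dependence was not tested.

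**Figure D4:**
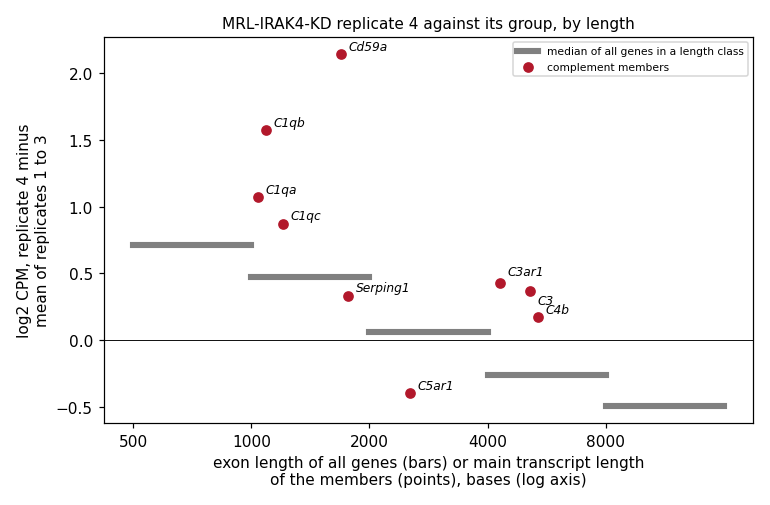
Log2 CPM of MRL-IRAK4-KD replicate 4 minus the mean of replicates 1 to 3 against length in bases on a log axis; grey bars are medians of all genes in 5 length classes by exon length, red points the 9 members at the length of their main transcript. The medians fall from 0.71 to -0.49. At these lengths C5ar1 and Serping1 lie below the bar of their class and the other members above it.

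The counts assigned to transcripts of Cd59a varied between mice in a way the gene total does not show, though not at an adjusted p below 0.05. Cd59a-203 carries an additional exon (chromosome 2, 104097725 to 104097844) between the first and second exons of the main transcript Cd59a-201. It had 0, 14, 53 and 0 counts in MRL replicates 1 to 4, 1015, 1035, 12 and 2658 in MRL-IRAK4-KD, 798, 254 and 283 in C57BL/6 and 986, 110 and 822 in IRAK4-KD mice. Its share of the gene's counts was at most 0.969% in MRL mice and 3.03% to 51.5% in C57BL/6 and IRAK4-KD mice, while MRL-IRAK4-KD replicate 3, at 0.491%, lay in the MRL range. The log2 fold change was -6.73 ± 1.86 between MRL and MRL-IRAK4-KD (adjusted p = 0.616) and -5.13 ± 1.77 between MRL and C57BL/6 mice (adjusted p = 1). Transcript counts are estimates from coverage, and the fit was added after values had been seen. The share of all transcripts with a like pattern is not given.

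**Figure D5:**
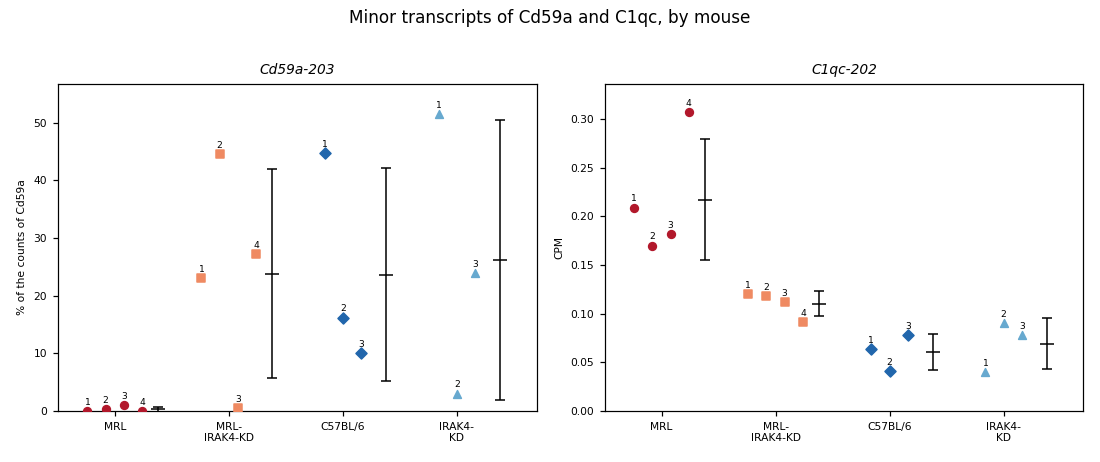
Left, share of the counts of Cd59a assigned to Cd59a-203, in percent; right, CPM of C1qc-202; points are mice with replicate numbers and bars the mean ± SD of each group. MRL mice lie at or below 0.969% on the left, together with MRL-IRAK4-KD replicate 3, and above all other mice on the right.

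The rest of the complement system was read from a list of 44 further genes. Of these 42 were tested, and the other 2 had 0 counts in all libraries, which does not show absence. Between MRL and MRL-IRAK4-KD mice 7 of 42 were higher in MRL and 0 lower at an unadjusted p below 0.05, and between MRL and C57BL/6 mice 3 were higher and 1 lower. These counts stand beside 11.4% and 5.55% of all genes. Without MRL-IRAK4-KD replicate 4 they were 8 higher and 0 lower, and 7 higher and 1 lower, with no share of all genes given for that fit. None was called at an adjusted p by edgeR, DESeq2 or limma-voom in either. The medians were 0.08 and 0.14 on the log2 scale, against 0.002 and -0.005 over all genes.

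Among the receptors, 3 of 8 were at an unadjusted p between MRL and MRL-IRAK4-KD mice (11.4% of all genes). Between MRL and C57BL/6 mice 4 of 8 were (5.55% of all genes), all higher in MRL in both comparisons. Beside C5ar1 and C3ar1 these were the integrin chains of complement receptors 3 and 4. Itgb2, their common chain, was at 7.07 ± 1.21 CPM (SD; here and below n = 4, 4 and 3) in MRL, 5.48 ± 0.658 in MRL-IRAK4-KD and 4.80 ± 0.573 in C57BL/6 mice, a log2 fold change of 0.37 ± 0.15 (adjusted p = 0.437) and 0.56 ± 0.16 (adjusted p = 0.641). Itgam ranged from 22.3 to 30.1 CPM in MRL and from 7.9 to 20.9 in MRL-IRAK4-KD mice, 0.61 ± 0.23 (adjusted p = 0.437), with no overlap between the groups. Without MRL-IRAK4-KD replicate 4, the mouse at 7.9 CPM, it was 0.37 ± 0.10 (adjusted p = 0.290). Itgax was at 0.477 ± 0.0628 CPM in MRL and 0.294 ± 0.0736 in C57BL/6 mice, 0.70 ± 0.32 (adjusted p = 0.899). These chains are shared by microglia and neutrophils.

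In the classical group C1s1, a protease of the C1 complex, was at 2.05 ± 1.23 CPM in MRL and 1.01 ± 0.343 in MRL-IRAK4-KD mice, 1.03 ± 0.36 (adjusted p = 0.432), and C4a was at 4.81 ± 0.623 and 3.86 ± 0.288, 0.32 ± 0.14 (adjusted p = 0.439). Of the inhibitors, Csmd1, a neuronal membrane protein, was at 68.3 ± 7.11 and 52.0 ± 12.1 CPM, 0.39 ± 0.16 (adjusted p = 0.437), which was 0.25 ± 0.11 without MRL-IRAK4-KD replicate 4 (adjusted p = 0.570). MRL and MRL-IRAK4-KD mice overlapped for all 3 of these genes. In C57BL/6 mice C1s1 was at 1.49 ± 0.104 CPM, C4a at 4.82 ± 0.774 and Csmd1 at 72.5 ± 6.82. The mean of C4a was thus nearly the same as in MRL mice, and that of Csmd1 was above it. Without replicate 4, C1s1 was at 1.16 ± 0.182 CPM in MRL-IRAK4-KD mice (n = 3).

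Several lectin and terminal genes had few counts. Fcnb, a ficolin of granulocytes, had 8 to 66 counts in MRL and 0 to 6 in MRL-IRAK4-KD mice, 3.88 ± 1.25 (adjusted p = 0.410), beside the neutrophil markers given above. C6, of the terminal pore, had 0 counts in all MRL and at most 9 in C57BL/6 mice. Cd55b, a decay-accelerating inhibitor, had 33, 0, 13 and 0 in MRL and 0 in all C57BL/6 mice, where 0 does not show absence. Both were at an unadjusted p below 0.05 between these groups (C6 adjusted p = 0.895, Cd55b adjusted p = 0.899). In the central and alternative group, 0 of 4 genes were at an unadjusted p in either comparison (11.4% and 5.55% of all genes). Without MRL-IRAK4-KD replicate 4, 1 of 4 had an unadjusted p below 0.05 and was higher in MRL than in MRL-IRAK4-KD mice (Cfd, a protease of the alternative pathway with at most 12 counts in a library, named after its value was seen), and the median of the group went from 0.05 to 0.38.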

How the data were processed

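Per the labels, hippocampal poly(A) RNA of 14 mice was sequenced after a KAPA HyperPrep mRNA preparation, whereas SMART-seq with NexteraXT is named in the methods. Per the submitters' processing notes and the methods, the authors used HISAT2 2.1.0 (mm10) and SAMtools 1.9 for alignment and deposited StringTie 2.1.0 counts per gene and transcript, whole and unnormalized. The annotation is not given in the sources used here, and all 55536 Ensembl identifiers matched GENCODE M21. The remaining rows (tRNA predictions and spike-ins, at most 0.188% of counts) were left out of library sizes. StringTie derives counts from coverage, which gave 1.40 to 2.08 counts per read of the core's sheet, so counts are not independent molecules and no counting interval was given. The sequencing core's deposited sheet also holds library concentrations (another unit, nM by qPCR).

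All genes reaching 10 counts over the libraries entered edgeR 4.0.16 (quasi-likelihood, robust, TMM) in R 4.3.3, in a single fit of 4 groups, where the study used DESeq2. Exact permutation tests used log2(CPM + 0.1). On simulated data for MRL against MRL-IRAK4-KD, over 36908 genes, edgeR recovered 72% of genes changed by 1 and 96% of those changed by 2 on the log2 scale, with 2.33% of calls false. There 7.87% of limma-voom calls and 28.6% of DESeq2 calls were false. In the other comparisons edgeR recovered 57% to 66% of genes changed by 1, with 1.92% to 6.86% of calls false. Changes below 1, the range of most members, were not simulated. The changed genes all had a mean of at least 1 CPM, and no simulated library stood apart by length, tissue or label. The rates therefore need not hold for the present libraries. Labels do not say whether libraries share litters or batches. Libraries of the same replicate number in the groups compared had correlations of deviations from -0.25 to 0.37 over 16104 genes. Pairs of unlike numbers were not compared, so whether replicate numbers pair the mice was not tested. The labelled group of IRAK4-KD replicate 3 was kept. The members and lists were chosen with earlier results of these data known. Besides the members, the text names the further complement genes at an unadjusted p below 0.05 in MRL against MRL-IRAK4-KD or C57BL/6 mice, the 3 nearest profiles of C1q, C3 and C4b, and markers and Fas where they stand beside a result. Of the further complement genes that this rule takes, 1 is not reported here. Alternatives were scaling by library size only, RLE size factors, DESeq2 1.42.0, limma-voom (limma 3.58.1) with quality weights, no filter, filterByExpr, only the 2 groups compared, a replicate block, each mouse left out, 3 libraries left out, transcripts summed per gene, paralogs summed, and for the permutation test a pseudocount of 1 and plain library sizes. A transcript-level fit was added later. Figures used matplotlib 3.10.9.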

Additional observations from a re-analysis of the deposited data

Results flagged for a closer look

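Within the groups of 4 mice, 5 of 18 sets of values had a library far from the others by Dixon's test (about 1 in 20 by chance in independent sets). The sets reuse the same libraries and most of these 5 are MRL-IRAK4-KD replicate 4, so they are not separate events. MRL-IRAK4-KD replicate 4 was the high one for C1qa at 90.5 CPM, C1qb at 118.5 CPM (119 rounded), C1qc at 64.3 CPM and Cd59a at 31.5 CPM, its gap to the next mouse taking 0.910, 0.903, 0.847 and 0.867 of the group's range. MRL replicate 4 was the high one for C3ar1, at 3.71 CPM, with a gap of 0.858 of the range. In the transcript table, outside the gene-level comparisons, C1qc-202 was higher in every MRL library (from 0.17 CPM) than in every C57BL/6 library. That separation was the rule by which it was picked.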

How the results depend on the processing

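Of 1116 member fold changes under an alternative, 1059 kept their direction, 57 took the opposite one and 2 passed an adjusted p of 0.05. Those 2, C1qa and C1qc between MRL and C57BL/6 mice, passed without the 3 libraries that stood apart. The cause of the changes below was not tested.

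Counts of members at an unadjusted p under these alternatives have no share of all genes beside them. For MRL against MRL-IRAK4-KD, members at an unadjusted p below 0.05 numbered 7 by limma-voom, 5 without the 3 libraries and 1 to 5 when 1 mouse was left out. Between MRL and C57BL/6 mice they numbered 2 with library size only and 1 to 6 with 1 mouse left out. Between IRAK4-KD and C57BL/6 mice there was 1 by limma-voom, 1 with only the 2 groups and 1 under the replicate block, with 0 to 1 leaving out a mouse. Between MRL-IRAK4-KD and IRAK4-KD mice there was 1 with only the 2 groups and 1 to 4 leaving out a mouse. For the interaction there was 1 by DESeq2, 4 by limma-voom, 5 without the 3 libraries and 0 to 2 leaving out a mouse. Of the further complement genes 1, Cfd, was called by limma-voom between MRL-IRAK4-KD and IRAK4-KD mice.

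Opposite directions between MRL and MRL-IRAK4-KD mice by limma-voom were 0.24 for C1qa, 0.29 for C1qb and 0.53 for Cd59a, and without the 3 libraries 0.40 for C1qa, 0.42 for C1qb, 0.01 for C3 and 0.12 for Cd59a. The replicate block gave C1qa 0.05 there, and C3ar1 -0.06 between MRL-IRAK4-KD and IRAK4-KD mice. Whether replicate numbers pair the mice was not tested. For the interaction limma-voom gave 0.22 for C1qa, 0.25 for C1qb, 0.18 for C1qc and 0.93 for Cd59a, and the fit without the 3 libraries 0.40, 0.38, 0.34 and 0.39, and 0.01 for C4b. Between MRL and C57BL/6 mice C3 was at 0.07 without the 3 libraries, and C4b at -0.0033 with library size only and -0.03 by limma-voom. Between MRL-IRAK4-KD and IRAK4-KD mice C3ar1 was at -0.02 with library size only, -0.22 by limma-voom and -0.18 without the 3 libraries, and Cd59a at -0.18 by limma-voom.

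Leaving out 1 mouse at a time, the ranges that crossed 0 were as follows. Between MRL and MRL-IRAK4-KD mice they were -0.12 to 0.33 for C1qa, -0.37 to 0.36 for C1qb, -0.02 to 0.32 for C4b, -0.28 to 0.01 for Serping1 and -0.84 to 0.29 for Cd59a. The positive ends of C1qa, C1qb and Cd59a came without MRL-IRAK4-KD replicate 4. Between MRL and C57BL/6 mice they were -0.45 to 0.14 for C3, -0.14 to 0.28 for C4b and -0.31 to 0.07 for Serping1. Between IRAK4-KD and C57BL/6 mice they were -0.13 to 4.9e-05 for C1qa, -0.41 to 0.02 for C3, -0.06 to 0.22 for C3ar1, -0.09 to 0.26 for C5ar1 and -0.07 to 0.41 for Cd59a. Between MRL-IRAK4-KD and IRAK4-KD mice they were -0.09 to 0.16 for C3ar1 and -0.09 to 0.23 for C5ar1. For the interaction they were -0.20 to 0.25 for C1qa, -0.51 to 0.22 for C1qb, -0.17 to 0.18 for C1qc, -0.41 to 0.04 for C4b and -0.65 to 0.51 for Cd59a.

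Groups of 3 and 4 limit the exact test, which cannot go below 0.0571 for 4 against 3 mice or 0.1 for 3 against 3. Nothing in the labels says that the mice came from separate litters, so p-values measure the spread between these libraries.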
